A study of Mus musculus with 3 samples.

Results

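The L1 family of cell adhesion molecules was examined in embryonic kidney rudiments of Fgfrl1-/- and wildtype mice. The family has 4 genes in the mouse, Chl1, L1cam, Nrcam and Nfasc, and all probes that the array assigns to one of these gene names were taken. This gave 10 of the 41174 probes, with 3 probes for Chl1, 1 for L1cam, 3 for Nrcam and 3 for Nfasc, and 4 of the 27745 gene names of the array. No further probe of these genes was found through transcript accessions or older symbols. Chl1 was chosen from its readout in this same comparison, in which it had the largest increase of all probes, and its values are therefore given as a description without a test. L1cam, Nrcam and Nfasc were chosen by their kinship with Chl1, and the question was whether the increase of Chl1 was shared by them, probe by probe and array by array.

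Total RNA came from the kidney rudiments of C57BL/6 embryos at day E12.5. One group carried the targeted inactivation of Fgfrl1 in all tissues (Fgfrl1-/-), and the other consisted of wildtype littermates. Each of 3 Fgfrl1-/- pools and 3 wildtype pools held 6 to 9 rudiments, so that 1 pool counts as 1 sample and the spread between single embryos was not measured. A pool of each genotype was hybridized to the same Agilent array, which carries probes of 60 bases and is read in 2 colours, with Cy3 for Fgfrl1-/- and Cy5 for wildtype. The dyes were swapped on 0 of the 3 arrays, and a dye effect on a probe cannot be told apart from the genotype.

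L1 family proteins span the cell membrane once. Outside the cell they carry immunoglobulin-like domains followed by fibronectin type III repeats, with which they bind to themselves, to other adhesion molecules and to integrins. Inside the cell a short tail binds ankyrin and, through it, the spectrin skeleton. The family is best known from the nervous system, where L1cam and Chl1 (close homolog of L1) act in the outgrowth and guidance of axons, Nrcam at growth cones and nodes of Ranvier, and Nfasc (neurofascin) at the axon initial segment and the nodes. In the developing kidney, L1cam is known as a protein of the ureteric epithelium.

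The stretches of sequence to which the measurements refer are given in 5′ to 3′ orientation as the array's annotation lists them, with positions on mouse genome build mm8. For Chl1 the first 30 bases of each probe are shown, because its 3 probes gave different readings.
Chl1 probe A_52_P441294, chr6:103698712-103698771, plus strand: ggtgtttgtattgtgcttatggctatgtat
Chl1 probe A_52_P613769, chr6:103695306-103695365, plus strand: ttcaggtgctcaaaatgcagaacacgaaac
Chl1 probe A_52_P593805, chr6:103610617-103610676, plus strand: ctgctgcattaaagtgaaaggattttctta
The probe of Nrcam with the highest signal is shown by its first 30 bases as well, since it is the reading of another member that lies clearly above background.
Nrcam probe A_51_P180413, chr12:45468878-45468937, plus strand: ttaagctctgtgccaatgtctaatctctct
The probe of L1cam and 1 probe of Nfasc are shown whole, because they were the most alike of the 45 pairs among the 10 probes.
L1cam probe A_51_P139410, chrX:70107759-70107818, minus strand: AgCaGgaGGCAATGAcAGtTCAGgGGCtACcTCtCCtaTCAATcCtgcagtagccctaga
Nfasc probe A_52_P331824, chr1:134397981-134398040, minus strand: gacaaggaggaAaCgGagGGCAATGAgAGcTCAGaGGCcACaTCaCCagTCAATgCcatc
Capitals mark the bases that are the same in both when the probes are laid side by side without gaps. They matched in 32 of 49 aligned bases (65.3%), with a longest common run of 8 bases, and no other pair of the 10 probes reached more than 48.1%. The readings of the 4 genes thus came from sequences that share no run of more than 8 bases. The probes had between 35% and 55% G and C, beside a median of 40% for all probes.

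The 2 Chl1 probes at 103695306 and 103698712 lie 3406 bases apart and are both listed under the transcript NM_007697. The third Chl1 probe lies 84689 bases upstream of the nearer and 88095 bases upstream of the farther one and is listed under AK082640, a transcript of its own. Exons and introns were not assigned, since no annotation of mm8 was used. The strand on which each probe is listed was that of its gene in RefSeq (GRCm38.p6) for all 4 genes.

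Chl1, an adhesion molecule that acts in axon guidance and cell migration, was higher in the Fgfrl1-/- rudiments on all 3 arrays by its brightest probe, A_52_P441294. Before any normalization, the spot read 2135.5, 3533.5 and 4608.5 intensity units in the Fgfrl1-/- channel on arrays 1, 2 and 3, over a local background of 18, 30 and 24. It read 769, 2933.5 and 2632.5 in the wildtype channel, over a local background of 60, 49 and 43. The raw values of both channels overlapped between arrays, but on each array the Fgfrl1-/- channel was the higher one. All spots were far above background, so that Chl1 was an expressed gene in the rudiments of both genotypes.

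The arrays differed in the balance of the dyes, and the raw readings of Chl1 followed it. Without dye normalization, the log2 ratio of Fgfrl1-/- over wildtype for A_52_P441294 was 1.58, 0.28 and 0.82. The 2227 probes of like brightness, within 0.5 of it in mean log2 signal, had median ratios of 0.20, -1.28 and -0.55 on the same arrays. The Chl1 spot thus stood 1.38, 1.56 and 1.38 above its neighbours in brightness, and the 3 arrays were closer to each other by this measure than by the raw ratio. After background correction and loess normalization the 3 arrays gave log2 ratios of 1.30, 1.54 and 1.37, which averaged 1.41 ± 0.12 (SD, n = 3 arrays). This is a 2.65-fold difference and rank 1 of the 41174 probes among the increases, which is the value by which the gene was chosen.

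The other probe of the same transcript, A_52_P613769, was dimmer and was higher on all 3 arrays as well. Its spot read 179.5, 227 and 281 in the Fgfrl1-/- channel over a background of 16, 30.5 and 26. In the wildtype channel it read 123.5, 176 and 181 over 56.5, 52.5 and 49.5. The genotypes were apart on each array, and the highest wildtype reading, on array 3, lay just above the lowest Fgfrl1-/- reading, on array 1. The normalized log2 ratios were 0.42, 1.28 and 1.06 and averaged 0.92 ± 0.45 (SD, n = 3), a 1.89-fold difference at rank 25 of the increases. Array 1 gave the lowest value for both probes, with a gap of 0.88 between the probes there against 0.27 and 0.31 on arrays 2 and 3. Probes on 1 transcript are not replicates of the genotype, and this probe too was read in the comparison that chose the gene.

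The third Chl1 probe, A_52_P593805, did not show the gene. Its spot read 33, 28 and 31.5 in the Fgfrl1-/- channel over 19, 26 and 28, and 62, 46 and 49 in the wildtype channel over 57, 48 and 46. The Fgfrl1-/- spot counted as well above background on 1 array and the wildtype spot on 0, and no fold difference is given for it. The increase of Chl1 therefore rests on the 2 probes of NM_007697, while the region of AK082640 gave no usable signal in either genotype.

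**Figure D1:**
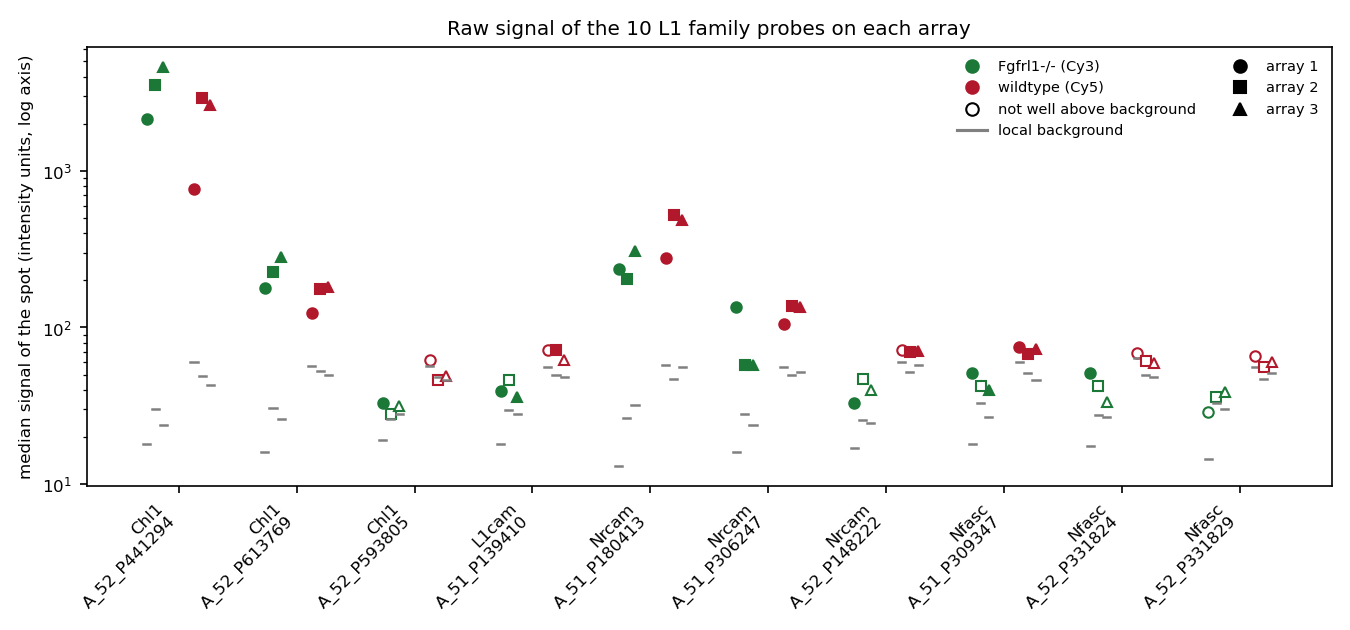
Median signal of the spot (intensity units, log axis) of each of the 10 L1 family probes in the Fgfrl1-/- channel (green) and the wildtype channel (red), with 1 symbol per array and grey bars for the local background of the spot. Open symbols were not well above background. Chl1 probe A_52_P441294 stands between 769 and 4608.5 in all samples, and most spots of L1cam and Nfasc lie close to their background.

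The increase was not seen in the other members. Of the 7 probes of L1cam, Nrcam and Nfasc, 0 passed as higher and 0 as lower at an adjusted p below 0.05 in limma's test over all 41174 probes. Of all probes, 0.289% passed as higher and 0.398% as lower, so that no call among 7 probes is what this background gives. At an unadjusted p below 0.05 there was 1 of the 7 probes, which was lower, beside 15.9% of all probes in either direction. The mean log2 ratios of the 7 probes ran from -0.25 to 0.13 with a median of -0.048, beside a median of 0.0037 over all probes.

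How much the test can say differed between the genes, since only 4 of the 10 probes, 2 of Chl1 and 2 of Nrcam, were well above background in both channels on all arrays. Nrcam, which binds ankyrin and acts in the clustering of sodium channels at nodes, was the other member that the arrays measured well. Its brightest probe, A_51_P180413, read 235, 203.5 and 306 in the Fgfrl1-/- channel over 13, 26.5 and 32. In the wildtype channel it read 278, 524 and 486 over 58, 47 and 56. With the background subtracted, the channels were level on array 1, at 222 against 220, and the wildtype channel was the higher one on arrays 2 and 3. These readings carry the dye balance of each array. Set against the 3781 probes of like brightness before dye normalization, the spot stood at -0.43, -0.26 and -0.16 on arrays 1, 2 and 3. The normalized log2 ratios were -0.35, -0.25 and -0.15, below 0 on 3 of 3 arrays. The processed signals of the scanner software were 546 against 537 on array 3, so that this sign rests on the normalization there. The mean of -0.25 ± 0.10 (SD, n = 3) had a 95% interval from -0.44 to -0.058 in limma's fit, and it did not pass after adjustment (adjusted p = 0.204). The upper end of this interval was below 0, and so below the increase of Chl1.

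The arrays were not of one mind on the second Nrcam probe, A_51_P306247, which is listed under AK048567 at chr12:45417039-45417098. It read 136, 57.5 and 58 in the Fgfrl1-/- channel over 16, 28 and 24, and 105, 136.5 and 135 in the wildtype channel over 56, 50 and 52. The Fgfrl1-/- reading was above the wildtype reading on array 1 and below it on arrays 2 and 3. The log2 ratios were 0.32, -0.25 and -0.38 and averaged -0.10 ± 0.37 (SD, n = 3, adjusted p = 0.815 in limma's test). Without array 1, which lay on a slide of its own, the mean was -0.31 and passed the test (adjusted p = 0.0116), at a setting in which 4172 probes passed as lower.

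The third Nrcam probe, A_52_P148222 (AK122252, chr12:45469340-45469399), was close to background. The Fgfrl1-/- channel was well above it on 1 array and the wildtype channel on 2. Its spot read 33, 47 and 40 against 72, 69.5 and 70.5, and its log2 ratios of -0.088, 0.24 and 0.13 averaged 0.094 ± 0.17 (SD, n = 3, adjusted p = 0.700 in limma's test). Its 95% interval of -0.13 to 0.32 holds values on both sides of 0. The 3 probes of Nrcam thus gave 1 reading with a log2 ratio below 0 on every array that did not pass, 1 mixed reading and 1 reading near the limit of detection, and 0 of them were higher on all arrays.

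L1cam, the founding member of the family, was near the limit of detection. Its single probe, A_51_P139410 (NM_008478), read 39, 46 and 36 in the Fgfrl1-/- channel over 18, 29.5 and 28. In the wildtype channel it read 71.5, 71.5 and 62 over 56, 50 and 48.5. The Fgfrl1-/- spot was well above background on arrays 1 and 3 and the wildtype spot on array 2 only, so that no array had both. The log2 ratios of -0.11, 0.067 and -0.059 lay on both sides of 0 and averaged -0.033 ± 0.090 (SD, n = 3, adjusted p = 0.893 in limma's test). The 95% interval of -0.22 to 0.15 describes the spot as read. At this signal over background, no difference in the L1cam transcript was detectable.

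Nfasc, which holds ankyrin and sodium channels at the axon initial segment, was near the limit of detection too. The probe A_51_P309347, whose bases span 2812 bases of the genome (chr1:134433130-134435941) and so join separate stretches of the transcript NM_182716, gave the clearest reading. Its spot read 51.5, 42.5 and 40 in the Fgfrl1-/- channel over 18, 33 and 27, and 75, 67.5 and 72.5 in the wildtype channel over 60, 51 and 46. The Fgfrl1-/- spot was well above background on 2 arrays and the wildtype spot on 3. The log2 ratios of 0.062, -0.070 and -0.14 gave a mean of -0.048 ± 0.10 (SD, n = 3, adjusted p = 0.834 in limma's test), with a 95% interval of -0.24 to 0.14. As for L1cam, the intervals of the Nfasc probes describe the spots as read and set no limit on the transcript.

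The remaining Nfasc probes gave little more. A_52_P331824, the probe shown above beside that of L1cam, passed as well above background on 1 array for Fgfrl1-/- and on 0 for wildtype. Its log2 ratios of 0.31, 0.15 and -0.065 averaged 0.13 ± 0.19 (SD, n = 3, adjusted p = 0.591 in limma's test), with a 95% interval of -0.10 to 0.36. The wildtype spots read above the lowest signal that counted as well above background, so that no bound beyond this ratio, 1.09-fold, can be set. A_52_P331829 (chr1:134410595-134410654) was well above background in neither channel on any array, and no fold is given.

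**Figure D2:**
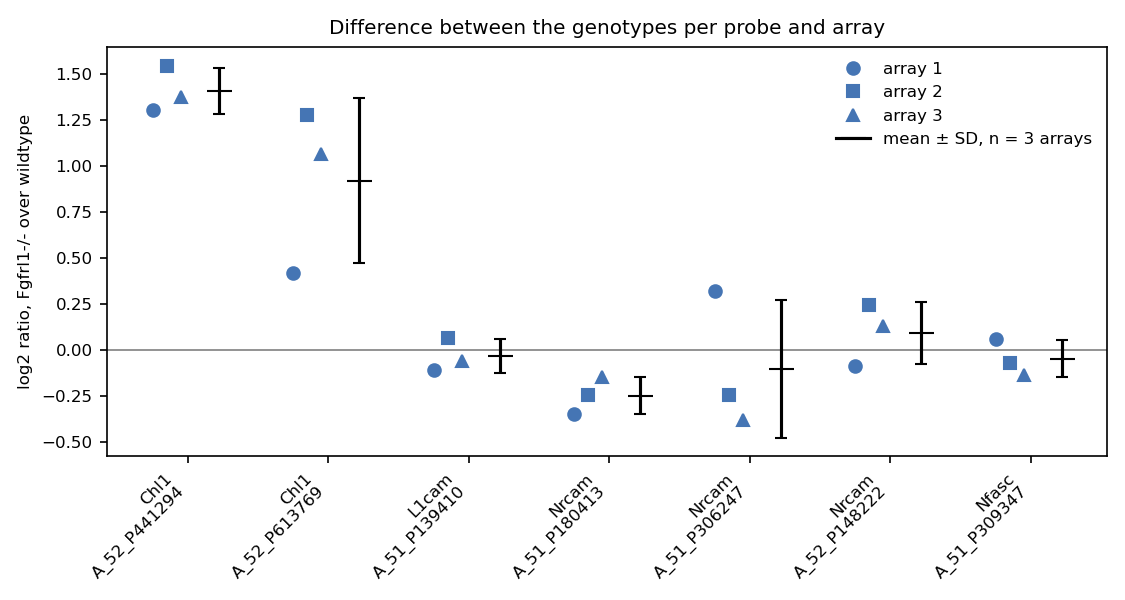
Log2 ratio of Fgfrl1-/- over wildtype on each of the 3 arrays (blue symbols) and mean ± SD (black) for the 7 L1 family probes that were well above background on at least 1 array in each channel. Both Chl1 probes lie above 0 on all arrays, with means of 1.41 and 0.92, whereas the means of the L1cam, Nrcam and Nfasc probes lie between -0.25 and 0.094.

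The log2 ratios of the other genes were also set against that of the brightest Chl1 probe within each array. The log2 ratio of Chl1 exceeded that of the L1cam probe by 1.41, 1.48 and 1.43 on arrays 1, 2 and 3. It exceeded that of the brightest Nrcam probe by 1.65, 1.79 and 1.52, and that of the clearest Nfasc probe by 1.24, 1.61 and 1.51. The smallest gap to any of the 7 probes on any array was 0.98, for Nrcam probe A_51_P306247 on array 1. These gaps contain the value by which Chl1 was chosen and are a description without a test, and those to L1cam and Nfasc were taken against probes near background.

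Other settings of the processing left this picture in place. Over 15 alternatives the mean log2 ratio of the brightest Chl1 probe lay between 1.09 and 1.46, and that of the second probe, which entered 14 of them, between 0.74 and 1.37. The lowest value of the second probe came without array 2 and the highest with the scanner software's ratios. The brightest Nrcam probe stayed below 0 in all 15, between -0.37 and -0.20, with adjusted p-values from 0.0863 to 0.667.

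**Figure D3:**
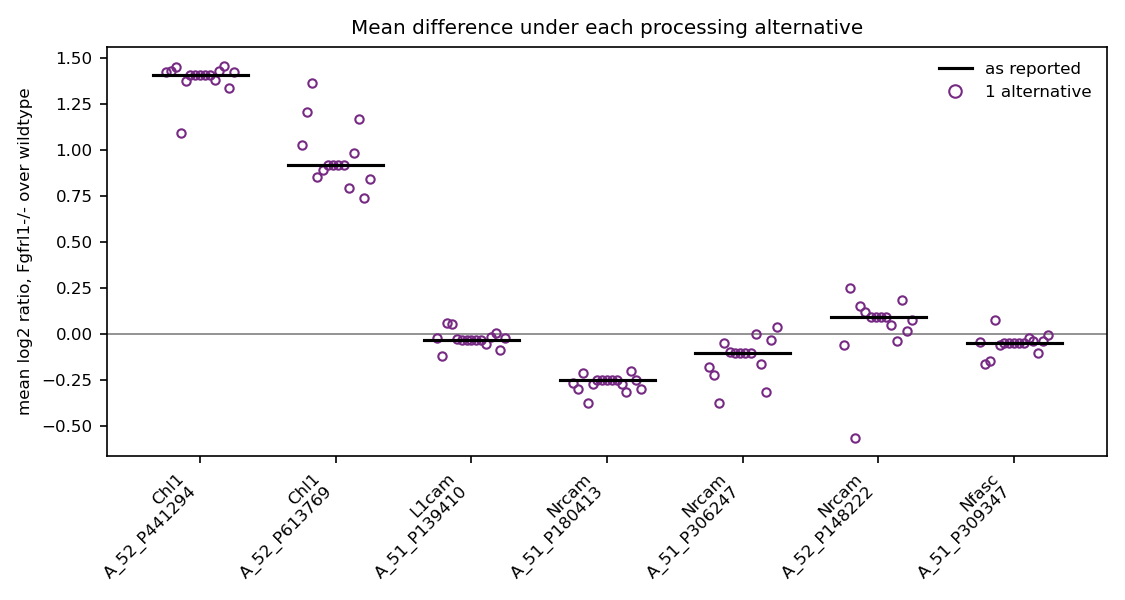
Mean log2 ratio of Fgfrl1-/- over wildtype for the same 7 probes as reported (black line) and under each processing alternative (open circles, up to 15 per probe). The Chl1 probe A_52_P441294 stays between 1.09 and 1.46, and the highest value among the L1cam, Nrcam and Nfasc probes shown is 0.25. Nfasc probes A_52_P331824 and A_52_P331829 are not shown.

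The genes through which L1 family proteins act were looked at next, each by its brightest probe, of which 0.466% passed as higher and 0.618% as lower over 19729 named genes. Among 17 intracellular partners, such as ankyrins, spectrins and the proteins of the ezrin group, 0 passed in either direction, and the median log2 ratio was 0.0046 beside 0.0069 over all named genes. The largest differences were those of Dcx, a microtubule-binding protein, with 0.68 ± 0.35 (SD, n = 3, adjusted p = 0.102), and Sptan1, the alpha chain of non-erythroid spectrin, with 0.35 ± 0.26 (adjusted p = 0.226), both in limma's test. Among 15 extracellular and membrane partners 0 passed, with a median of 0.074. Sema3a, a secreted guidance protein whose receptor complex can hold L1cam, had -0.44 ± 0.080 (adjusted p = 0.0782), and Itgb1, the common integrin beta chain, had 0.39 ± 0.053 (adjusted p = 0.0867). Both lay on one side of 0 on all arrays without passing. Among 8 proteases that cut L1 family proteins from the cell surface or within the membrane, 0 passed, with a median of 0.086. Bace1, which sheds Chl1, had 0.39 ± 0.15 (adjusted p = 0.111), and Adam8, a metalloprotease that cuts Chl1 as well, had 0.37 ± 0.42 (adjusted p = 0.363).

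Related adhesion molecules with immunoglobulin domains outside the family had a median log2 ratio near 0. Of 23 genes listed, 22 were measured and Robo3 had no named probe. One of them, Sdk1 (sidekick 1, an adhesion protein of synapses), passed as higher, and 0 passed as lower. Sdk1 had log2 ratios of 0.79, 0.68 and 0.54 on arrays 1, 2 and 3, with a mean of 0.67 ± 0.12 (SD, n = 3, adjusted p = 0.0432 in limma's test). It was higher on each array, by less than Chl1, and kept its side of the threshold in 5 of 15 alternatives. The median of the 22 genes was 0.0039, and 11 of them lay above 0. Of the 22, 15 were well above background in both channels on all arrays, and the median also holds the dimmer ones.

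Because the family is best known from nerves, markers of nerve cells were read beside Chl1. Of 18 genes of neurons, 0 passed in either direction and 9 lay above 0, with a median of -0.0075. The largest differences were those of Elavl4, a neuronal RNA-binding protein, with -0.71 ± 0.33 (SD, n = 3, adjusted p = 0.0906 in limma's test), and Nefl, the light neurofilament chain, with 0.34 ± 0.19 (adjusted p = 0.173). The summed processed signal of the 18 genes ran from 3144 to 6124 in the Fgfrl1-/- channel and from 3703 to 6136 in the wildtype channel, so the ranges over the arrays overlapped. Within arrays 1, 2 and 3 the median of the list was 0.079, -0.0025 and -0.18. Of 10 genes of Schwann and neural crest cells, 1 passed in each direction. Gfra3, the receptor of artemin, was higher with 0.68 ± 0.12 (adjusted p = 0.0429), and Fabp7, a fatty acid binding protein of glia, was lower with -0.79 ± 0.19 (adjusted p = 0.0439). Each kept its side of the threshold in 4 of 15 alternatives. The summed signal of these 10 genes was 6661 to 7679 in the Fgfrl1-/- and 6851 to 8028 in the wildtype channel. Their median was 0.018, -0.19 and -0.16 on arrays 1, 2 and 3. Sox10, which defines the lineage, had -0.097 ± 0.15 (adjusted p = 0.677). Of the neuron genes 13, and of the Schwann and neural crest genes 7, were well above background in both channels on all arrays. Over all arrays the median of the Schwann and neural crest list was -0.040, and 5 of its 10 genes lay above 0. The part of nerve cells and glia in the Chl1 value was not tested. Dcx, which is also a gene of young neurons, was counted among the partners above and not in the neuron list. Its log2 ratios were 0.29, 0.97 and 0.79 on arrays 1, 2 and 3, and it did not pass.

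Markers of other cell types of the rudiment were read in the same way. The 14 genes of the renal stroma had a median log2 ratio of 0.44, with 11 above 0. Of these, 3 passed as higher and 0 as lower: Postn, a matrix protein (1.04 ± 0.17, adjusted p = 0.0336), Pdgfra, the receptor for platelet-derived growth factor of mesenchymal cells (1.02 ± 0.093, adjusted p = 0.0274), and Col1a1, a chain of type I collagen (0.84 ± 0.18, adjusted p = 0.0416). They kept their side of the threshold in 7, 8 and 5 of 15 alternatives, and Col1a1 had 0.29 with median centring. The 3 genes below 0 were Tcf21, a transcription factor of the kidney mesenchyme (-0.48 ± 0.26, adjusted p = 0.127), Pdgfrb (-0.25 ± 0.23, adjusted p = 0.344) and Tbx18 (-0.15 ± 0.31, adjusted p = 0.659), of which Tcf21 was below 0 on all arrays. All 14 were well above background in both channels on all arrays. Their summed processed signal was 321248 to 335580 in the Fgfrl1-/- channel against 197973 to 239094 in the wildtype channel. Such a sum gives most weight to the brightest genes, and no sum over all probes is given beside it. Within arrays 1, 2 and 3 the median of the list was 0.68, 0.58 and 0.27. Foxd1, which defines the cortical stroma, had 0.90 ± 0.29 (adjusted p = 0.0570). Under the processing alternatives the median of the stroma list ran from 0.076 to 0.62. The part of a different cell makeup in the Chl1 value was not tested. In RNA of whole rudiments, a different number of cells of a type and a different amount of RNA per cell cannot be told apart.

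The 8 macrophage genes also lay above 0 without exception, with a median of 0.49. Their summed signal over the arrays was 3204 to 5536 for Fgfrl1-/- against 2181 to 3272 for wildtype, ranges that overlap. Within arrays 1, 2 and 3, where the pools are paired, the median of the list was 0.64, 0.39 and 0.42. Of the 8 genes 1 passed as higher, C1qa, a chain of complement C1q (0.65 ± 0.11, adjusted p = 0.0432), and C1qb had 0.64 ± 0.25 (adjusted p = 0.0823). C1qa kept its side of the threshold in 4 of 15 alternatives. The part of macrophages in the Chl1 value was not tested. In the ureteric epithelium, where L1cam is known as a marker, the 16 genes had a median of 0.27, with 12 above 0. Of the 16, 15 were well above background in both channels on all arrays. Under the processing alternatives this median ran from 0.0096, with median centring, to 0.32. The largest differences there were those of Wnt11, a ligand made at the ureteric tips, which was the one gene to pass and was lower (-0.76 ± 0.13, adjusted p = 0.0408), and of Wnt9b, the ureteric signal for nephron induction (0.73 ± 0.25, adjusted p = 0.0661). Wnt11 kept its side of the threshold in 6 of 15 alternatives.

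Of 10 genes of the renal vesicle 6 passed as lower and 0 as higher, with a median of -1.18, led by Wnt4 (-2.40 ± 0.34, adjusted p = 0.0201) and Fgf8 (-2.05 ± 0.34, adjusted p = 0.0259), while Cdh6 had 0.23 ± 0.023 (adjusted p = 0.184). Of 8 genes of the cap mesenchyme 1 passed as lower, Cited1 (-0.78 ± 0.19, adjusted p = 0.0442), with a median of -0.21, and Eya1 had -0.42 ± 0.31 (adjusted p = 0.194). Wnt4 and Fgf8 each kept their side of the threshold in 9 of 15 alternatives, and Cited1 in 5. Of skeletal muscle, endothelium, erythroid, and adrenal and gonadal genes 0 passed in either direction, with medians of 0.036, -0.034, -0.053 and -0.13. The values farthest from 0 were 0.77 for Myh3 and 0.54 for Tnnt1 in muscle, 0.17 for Pecam1 and 0.14 for Tie1 in endothelium, -0.47 for Hba-x and 0.15 for Alas2 in erythroid cells, and -0.31 for Mc2r and -0.17 for Nr5a1 in adrenal and gonad.

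**Figure D4:**
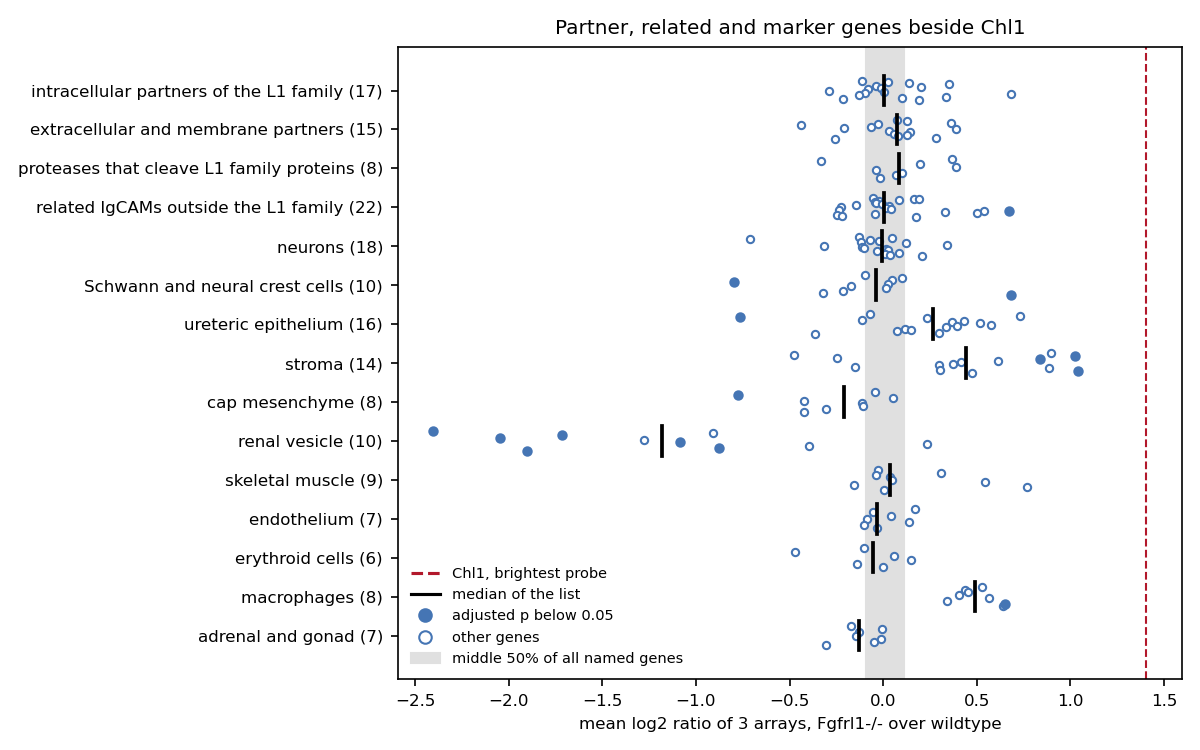
Mean log2 ratio of 3 arrays, Fgfrl1-/- over wildtype, of each gene of the 15 lists of partner, related and marker genes, with the number of genes measured in brackets. Filled circles passed at an adjusted p below 0.05, black bars are the medians of the lists, the grey band holds the middle 50% of all named genes, and the dashed line is the brightest Chl1 probe at 1.41, the value by which the gene was chosen. The renal vesicle list has its median at -1.18 and the stroma list at 0.44.

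The genes nearest to Chl1 in their readings on the 3 arrays were found by the Euclidean distance between log2 ratios, among 20558 probes that were well above background in both channels on all arrays. They were Tbx1, a T-box transcription factor, at a distance of 0.40, Sparcl1, a matrix-associated glycoprotein, at 0.66, Phyhd1, a dioxygenase, at 0.68, Postn at 0.70 and Pdgfra at 0.71. Tbx1 had log2 ratios of 1.09, 1.21 and 1.33 on arrays 1, 2 and 3, and the means of the other 4 genes lay between 1.02 and 1.04. With the ratios of the scanner software 3 of these 5 genes were again among the nearest 5. With 3 arrays, this likeness is little more than a similar size of the increase.

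Fgfrl1 itself, as a check of the labels, averaged a log2 ratio of -1.52 ± 0.31 (SD, n = 3, adjusted p = 0.0332 in limma's test), from array values of -1.21, -1.51 and -1.83. Over all probes, the log2 ratios of arrays 2 and 3, which shared a slide, correlated with r = 0.71 across probes, whereas array 1 correlated with them at 0.11 and 0.22. Array 1 thus stood apart, and the Chl1 mean without it was 1.46. The share of probes well above background was 57.1% to 80.2% for Fgfrl1-/- and 60.9% to 65.0% for wildtype.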

How the data were processed

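RNA pools of both genotypes were hybridized in pairs to 3 arrays. The authors deposited scanner files (Feature Extraction 9.5.3.1 on array 1, 10.5.1.1 on arrays 2 and 3) with median intensities of spots and local background, intensities processed by the software, and log10 ratios of wildtype over Fgfrl1-/-. They also deposited a table of log2 ratios. Against the scanner ratios it had r = -0.70 to -0.72 across probes, so its direction is Fgfrl1-/- over wildtype. Its column medians were -0.018, 0 and 0.003, and the steps behind it are not given in the sources used here.

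Median intensities were corrected with limma's normexp model (R 4.3.3, limma 3.58.1, offset 50) and normalized by loess within arrays, with the 1639 control spots given no weight. After that, 107, 113 and 138 outlier spots were left out, and spots were averaged per probe. The log2 ratio, which pairs the pools of an array, was fitted per probe (lmFit, eBayes, tested on simulated data), with Benjamini-Hochberg adjustment over 41174 probes and a threshold of 0.05. Per the methods, littermates were used and dissected in parallel, but which pools share a litter is not given in the sources used here, so the p-values measure the spread between these arrays, whose number sets the precision. No spot was saturated. Names came from the file of array 1 and from RefSeq (25937 probes by current symbol, 4739 by accession, 2426 by older symbol, 8072 unnamed).

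For a probe above background in 1 channel only, the bound sets its mean there against the higher of its own reading and the lowest signal counted as well above background in the other channel, and is open to dye bias. It was under 1 for Chl1 A_52_P593805 and equal to the measured ratio for Nfasc A_52_P331824. The members and lists were chosen with earlier results of these data known. Genes were named by rule: all L1 family probes, Fgfrl1, the 5 nearest to Chl1, the genes of the partner, related and nerve lists that passed, and otherwise the 2 largest differences of a list. Sox10, Foxd1, Col1a1, Tcf21, Pdgfrb, Tbx18 and Cdh6 were named after their values were seen. Alternatives covered background correction, normalization, dim probes, outliers, the variance model, pairing, slide, the deposited table and each array left out.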

Additional observations from a re-analysis of the deposited data

How the results depend on the processing

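Over 15 alternatives the Chl1 mean stayed above 0, at 1.09 with median centring in place of loess and between 1.34 and 1.46 with 1 array left out. The count of L1cam, Nrcam and Nfasc probes that passed was 0 in both directions throughout, apart from 1 lower probe, Nrcam A_51_P306247, without array 1, so that this count ran from 0 to 1 with 1 array left out. Changes of sign were seen in probes that did not pass with all arrays. L1cam had 0.059 with the scanner software's ratios, 0.056 with median centring, and -0.084 to 0.0042 with 1 array left out. Nrcam A_52_P148222 had -0.058 without background subtraction, -0.56 with the scanner software's ratios and -0.037 in the deposited table. Nrcam A_51_P306247 had 0.0031 with 1 value per slide and -0.31 to 0.037 with 1 array left out (the latter without array 3), and Nfasc A_51_P309347 had 0.077 with median centring. The cause was not tested.

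The counts over all probes, 119 higher and 164 lower, moved far more. They were 0 and 0 with an offset of 0, with the scanner software's ratios, with 1 value per slide, without array 2 and without array 3. They were 0 and 6 with a trended robust variance, 2 and 91 with median centring, 18 and 57 without dim probes, 22 and 60 with quantile normalization, 4 and 32 in the deposited table, 72 and 117 without background subtraction, and 3494 and 4172 without array 1. Without the pairing of pools by array (no replicate block, separate channels with an intraspot correlation of 0.45) they were 226 and 237, and Chl1 kept its mean of 1.41. Calls of single genes are therefore bound to the settings, and Fgfrl1 passed in 9 of 15. At an unadjusted p below 0.05 there were 6541 probes.

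The medians of the stroma and macrophage lists stayed above 0 and those of the cap mesenchyme and renal vesicle lists below 0 in all alternatives. The slide as a random block was not fitted, as its correlation had no estimate, and mean signals were not run, since the files used for arrays 2 and 3 hold medians only. Signal over background limits what can be read for L1cam and Nfasc.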
